A study of Mus musculus with 8 samples.

Results

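The xenobiotic metabolism enzymes measured here were 59 protein-coding genes of the cytochrome P450, UDP-glucuronosyltransferase, glutathione S-transferase, microsomal glutathione S-transferase and sulfotransferase families, among 54532 listed genes, in organoids grown from mouse intestinal crypts with or without RANKL. The members were chosen by gene symbol and by a minimum of 20 counts summed over all 8 libraries, so a member's presence among the 59 is not a result. Of 146 protein-coding symbols of these families in the table, 49 had no count in any library and 38 had between 1 and 19 counts. Just inside the minimum lay Cyp4f40 with 22 counts, Cyp2c23 with 35 and Sult1c2 with 36, and just outside lay Cyp1a1 with 14 and Gsto2 with 12. The members comprised 23 P450s, 9 UDP-glucuronosyltransferases, 19 glutathione S-transferases, 3 microsomal glutathione S-transferases and 5 sulfotransferases.

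Enterocytes are the first cells of the body to meet many swallowed drugs, plant compounds and bacterial products. P450s of the endoplasmic reticulum oxidize such lipophilic molecules (phase I), and transferases then couple glucuronic acid, glutathione or sulfate to them (phase II), so that efflux pumps can return them to the gut lumen or pass them to the blood. Many of these enzymes also act on the body's own molecules, such as fatty acids, steroids, bile acids, bilirubin and lipid peroxides, and nuclear receptors and the aryl hydrocarbon receptor set the level of many of their genes.

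The study asked what RANKL, the ligand of the receptor RANK, does to the intestinal epithelium. Organoids were embedded in Matrigel and grown in a medium with EGF, NOGGIN and R-spondin, which both groups shared, and 4 libraries came from control and 4 from RANKL-treated organoids. Genotype, strain, sex and age of the donor mice, and the dose and time of RANKL for these libraries, are not given in the labels. Neither do the labels say whether replicates were separate cultures or animals, so p-values measure the spread between these samples, which may be technical.

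Library totals ranged from 583663 to 7807298 counts, a 13.4-fold range, and a single count was worth between 0.127 and 1.72 CPM (counts scaled to a library of 1000000). The smallest libraries were control replicate 4 and RANKL replicate 1. All 10 listed RANK response genes and all 6 tested M cell markers rose with RANKL, while the M cell marker Gp2 had no count. Both lists hold Spib, Tnfaip2 and Ccl20. The paper already reported Bmp2, Id3, Birc3 and Tnfaip3 of the first list as induced in RANKL-treated organoids. These counts therefore check the labels and are no independent result. Enterocyte, Paneth and goblet markers were present in every library, and summed immune, stromal and endothelial markers stayed at or below 15.5 CPM. Of 10 tested crypt base stem cell markers 5 were lower (Lgr5, Axin2, Smoc2, Ephb2, Prom1) and 1 higher (Ascl2), and the list summed to between 2434 and 2913 CPM in control and between 2037 and 2181 CPM in RANKL libraries, without overlap. Of 11 enteroendocrine markers 3 were higher (Sct, Cck, Gip), and their sums overlapped. The 17 enterocyte markers summed to between 14607 and 18732 CPM in control and between 13310 and 14714 CPM in RANKL libraries, with 4 of them lower and 1 higher. Over all tested genes 12.4% were lower and 13.6% higher. Fewer cells of a type and less RNA per cell cannot be told apart in such bulk samples, and the part of these markers in the results was not tested.

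The enzyme genes called different were mostly lower with RANKL. Of 52 members with enough counts to be tested, 14 (26.9%) were lower and 2 (3.85%) were higher at an adjusted p under 0.05, against 12.4% of all 9971 tested genes lower and 13.6% higher. In either direction 25.9% of all genes passed the threshold, and the share of members in each direction was not tested against other genes. The fold changes were modest, with only Cyp2s1 among the called members past a fitted fold of 2, and the median log2 fold change was -0.12 over the 52 members and 0 over all tested genes. In total 36 members had a negative and 16 a positive log2 fold change, and of all tested genes 50.0% had a negative one. For 17 of the 52 (32.7%) the control and RANKL libraries did not overlap, against 24.6% of all genes, and 14 of these 17 were among the 16 called. Of the other 3 (Cyp2c66, Cyp2d22 and Gstp3), Cyp2d22 and Gstp3 passed the low-count filter only through the group where they were higher. For any gene without overlap, exact permutation (two-sided, difference of mean CPM) must give p = 0.0286, the smallest that 4 against 4 libraries can give. For those 14 this p-value therefore restates the separation of the groups and is no further support. All 16 called members reached the level of the low-count filter in each of the 8 libraries, as did 47 of the 52. The 7 members left untested by that filter were Cyp2c23, Cyp2c38, Cyp2j9, Cyp4f40, Ugt1a6a, Gstp2 and Sult1c2, of which Cyp2c38 had the highest group mean, 7.8 ± 4.21 CPM in control against 2.17 ± 1.49 CPM with RANKL. The Cyp2c38 groups did not overlap, at 4.2, 5.64, 7.6 and 13.8 CPM in control and 3.23, 0.688, 3.65 and 1.1 CPM with RANKL. It was called lower in 6 alternative settings, among them DESeq2, no filter on low counts and leaving out both small libraries. No RANKL library reached the filter's 5.39 CPM. Where leaving out libraries let Cyp2c38 pass the filter, it passed through the control libraries, where it was higher, so those calls are no added support. QuantSeq reads the 3′ end of a transcript, so a count does not grow with transcript length. CPM can be compared between genes only as far as their reads are unique to them. At this end 29 members share sequence with other genes, so their levels relative to other genes are uncertain to that degree.

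**Figure D1:**
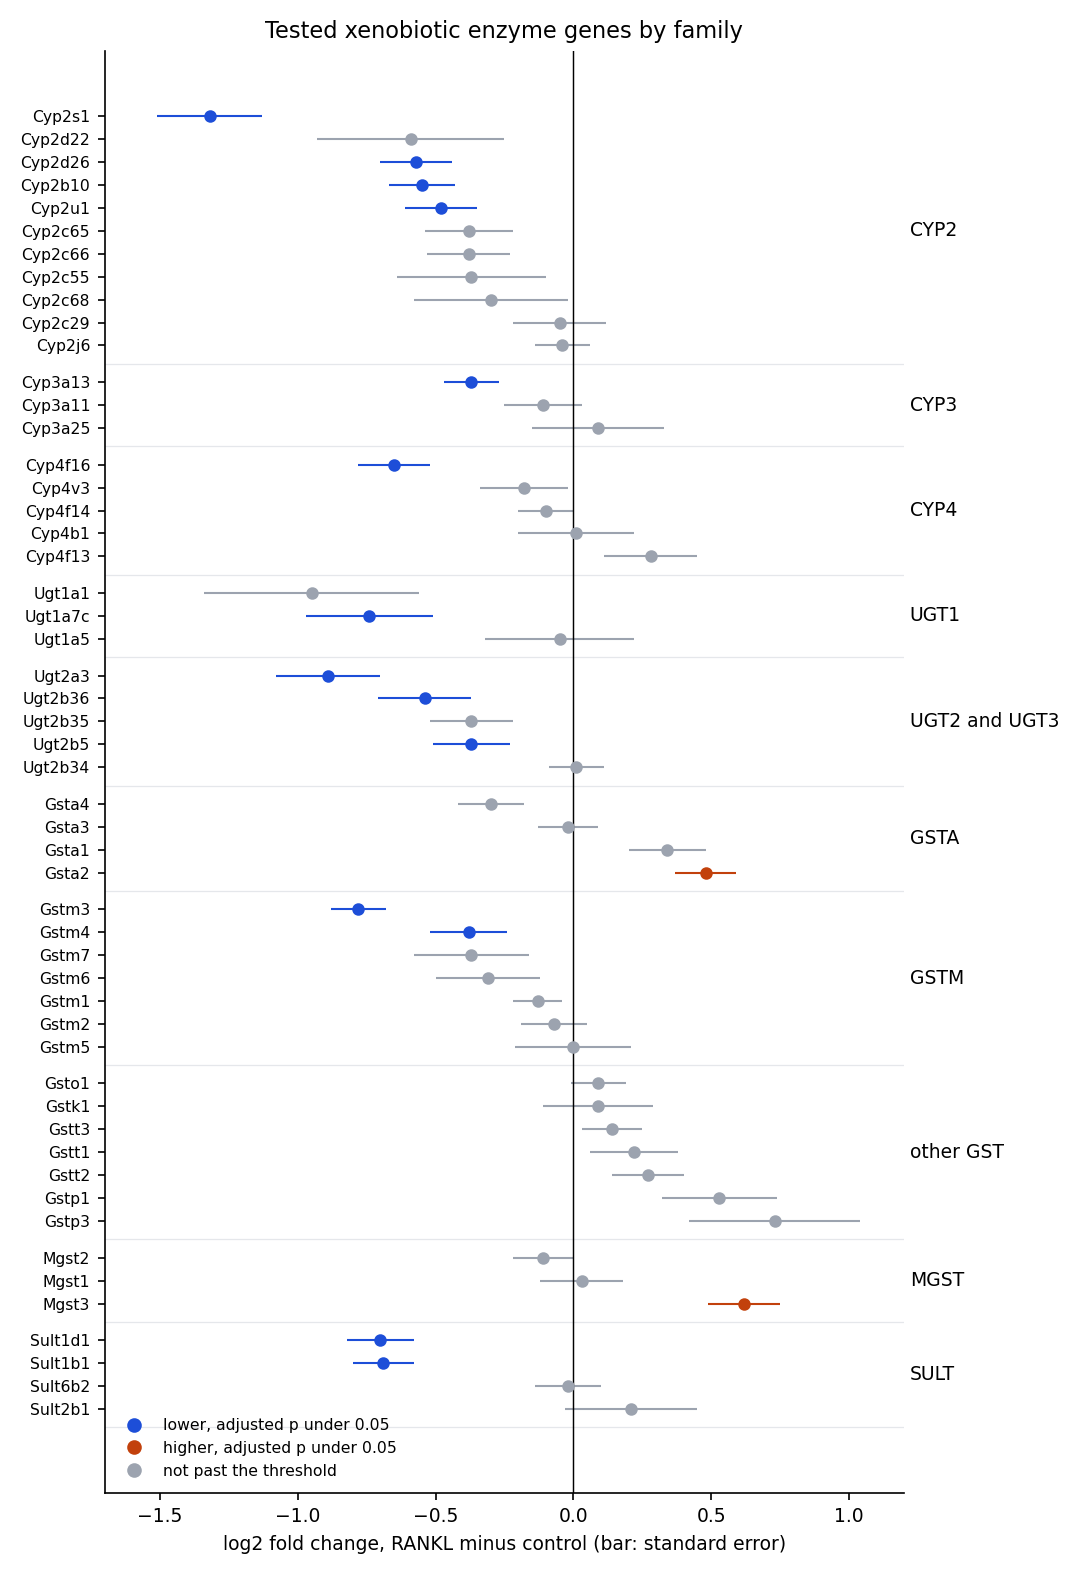
Log2 fold change (horizontal axis, RANKL minus control, bar: standard error) of the 52 tested enzyme genes, grouped by family and ordered within it. The 14 lower genes (blue) fall in the P450, UGT, GSTM and SULT families, the 2 higher genes (red) are Gsta2 and Mgst3, and grey genes did not pass the threshold.

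Summed over all members, the enzymes made up 6680 ± 74.5 CPM (SD, n = 4) in control and 5923 ± 180.3 CPM in RANKL libraries, a ratio of 0.887, and the groups did not overlap. The P450s summed to 2341 ± 49.0 CPM in control and 1955 ± 57.7 CPM with RANKL, and the mu-class transferases (GSTM) to 1745 ± 62.6 and 1362 ± 48.5 CPM. In contrast, the sum of the theta, pi, omega and kappa transferases was 536.4 ± 38.8 CPM in control and 602.2 ± 49.6 CPM in RANKL libraries, with every RANKL library above every control library. These groups nearly met, at 567.8 CPM in the highest control and 572.1 CPM in the lowest RANKL library, while RANKL replicate 4 held 676.1 CPM. GSTA, MGST, CYP4, SULT and UGT2 totals overlapped between the groups. The sums were compared without a test, and abundant members dominate them: GSTM alone held 26.1% of the member total in control and 23.0% with RANKL.

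**Figure D2:**
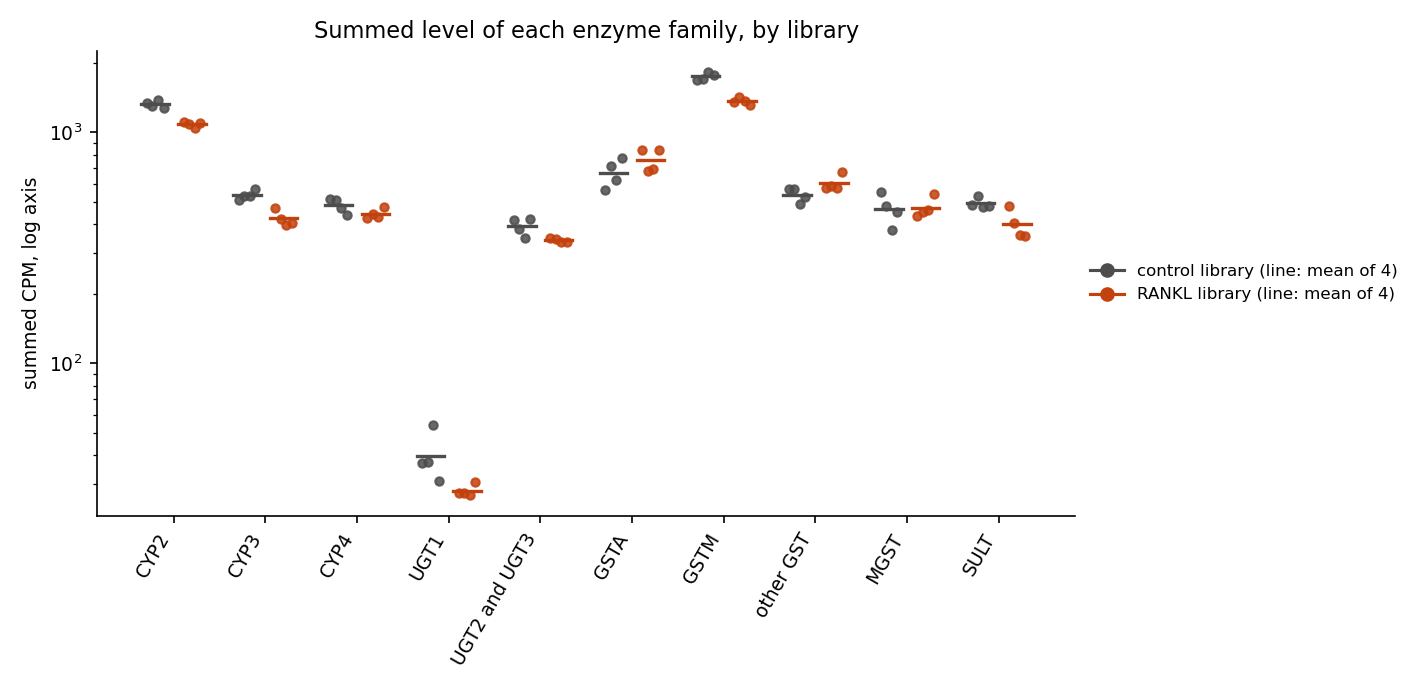
Summed CPM (log axis) of each enzyme family in each of the 4 control and 4 RANKL libraries (points), with the mean of 4 as a line. RANKL libraries lie below the controls for CYP2, CYP3, UGT1 and GSTM, above them for the other GSTs, and overlap them elsewhere.

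Among the phase I enzymes, Cyp2s1, an extrahepatic P450 of epithelia (chr7:25802475-25816913, GRCm38, minus strand), had the largest fall among the tested members that passed the threshold. It measured 29.7, 34.3, 28.4 and 32.7 CPM in the control and 12.9, 11.7, 13.6 and 11.5 CPM in the RANKL libraries. The groups stood far apart and were tight within, and the log2 fold change was -1.32 ± 0.19 (SE, adjusted p = 4.1e-06, edgeR). Its neighbour Cyp2b10, the classical target of the constitutive androstane receptor and the phenobarbital response, lies on the opposite strand within the same 124 kb. Cyp2b10 had 161.8, 183.0, 240.2 and 225.3 CPM in control and 132.4, 156.2, 132.5 and 124.1 CPM with RANKL (log2 fold change -0.55 ± 0.12, adjusted p = 0.001). The lowest control and the highest RANKL library came close to each other without overlapping.

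Cyp2d26, of the drug-oxidizing CYP2D subfamily, was the second most abundant CYP2 gene. Its levels were 214.7, 188.9, 305.9 and 213.2 CPM in control and 158.2, 169.3, 163.2 and 136.2 CPM in RANKL libraries (log2 fold change -0.57 ± 0.13, adjusted p = 0.00097). Control replicate 3 stood above the other controls, and without it the log2 fold change was -0.39, the smallest of any left-out library. Cyp2u1, which hydroxylates long-chain fatty acids, had 97.5, 117.3, 100.4 and 82.5 CPM in control and 69.4, 92.9, 67.3 and 62.6 CPM with RANKL. RANKL replicate 2 reached into the control range, and the call (log2 fold change -0.48 ± 0.13, adjusted p = 0.0072) was lost without RANKL replicate 4 or with library total as a covariate. An exact permutation test on its CPM gave p = 0.0571.

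The most abundant P450 did not pass the threshold. Cyp2j6, whose subfamily converts arachidonic acid to epoxides, ranged from 490.1 to 650.3 CPM in control and from 481.8 to 617.9 CPM in RANKL libraries, with a log2 fold change of -0.04 ± 0.10. All 11 tested CYP2 genes had a negative log2 fold change, against 50.0% of all tested genes. Against 12.4% of all tested genes called lower, 4 of the 11 passed the threshold. None of the 5 tested Cyp2c genes, a cluster of drug and fatty acid oxidases on chromosome 19, passed it. Among all tested CYP2 genes, Cyp2c66 and the low Cyp2d22, which lies on chromosome 15, are named after their values were seen. Their libraries did not overlap between groups, yet adjusted p (edgeR) was 0.058 and 0.21. Cyp2d22 passed the low-count filter through the control libraries, since a single RANKL library reached the filter's level. No CYP1 gene reached the count minimum. Cyp1a1, the standard readout of aryl hydrocarbon receptor activity, had 9, 0, 2 and 1 counts in control and 0, 2, 0 and 0 in RANKL libraries, and Cyp1b1 had none, which allows up to between 0.382 and 5.16 CPM per library.

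Cyp3a13, of the subfamily that oxidizes the broadest range of drugs, was the most abundant CYP3 gene. It held 436.9, 467.4, 473.9 and 491.8 CPM in control and 418.1, 357.2, 340.6 and 340.0 CPM in RANKL libraries (log2 fold change -0.37 ± 0.10, adjusted p = 0.0048). RANKL replicate 1 was the closest to the controls but stayed below them. Cyp3a11, a target of the pregnane X receptor, had a mean of 49.4 ± 4.73 CPM in control and 45.4 ± 4.33 CPM with RANKL, and its libraries overlapped (log2 fold change -0.11 ± 0.14, adjusted p = 0.61). Within each library Cyp3a13 exceeded Cyp3a11 by 8.13- to 10.4-fold in control and by 6.8- to 9.25-fold with RANKL.

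The CYP4F enzymes inactivate leukotrienes and other lipid mediators by hydroxylation. Cyp4f16 fell, from 65.3, 75.9, 73.2 and 63.6 CPM in control to 50.0, 40.6, 46.9 and 43.9 CPM with RANKL (log2 fold change -0.65 ± 0.13, adjusted p = 0.0004). In its last 500 bases, 21.2% of all 50-base words also occur in other genes, mainly of its own subfamily, so its count is uncertain. The more abundant Cyp4f14 ranged from 273.4 to 339.2 CPM in control and from 276.1 to 312.5 CPM in RANKL libraries, with a log2 fold change of -0.10 ± 0.10 that did not pass the threshold. The other 3 tested CYP4 genes did not pass it either.

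Glucuronidation enzymes of the UGT2 group sit in a row on chromosome 5 together with a pair of sulfotransferase genes. In the 679 kb from chr5:86889767-87569027 lie Ugt2b34, Ugt2b35, Ugt2b36, Ugt2b5, Ugt2a3, Sult1b1 and Sult1d1 in this order. The last 5 of the 7 were called lower with RANKL, against 12.4% of all tested genes, and the row was not tested as a group. Ugt2a3, which glucuronidates bile acids, measured 31.6, 27.4, 27.4 and 43.0 CPM in control and 14.5, 17.9, 15.6 and 16.5 CPM in RANKL libraries. All RANKL values lay below all control values (log2 fold change -0.89 ± 0.19, adjusted p = 0.00069). The UGT2B enzymes act on steroids and drugs. Ugt2b36 had 40.1, 33.8, 44.1 and 53.3 CPM in control and 35.5, 31.7, 22.4 and 27.5 CPM with RANKL, and Ugt2b5 had 58.7, 51.3, 57.0 and 56.8 against 46.8, 38.5, 48.5 and 40.1 CPM. The Ugt2b36 groups overlapped and those of Ugt2b5 did not, with log2 fold changes of -0.54 ± 0.17 (adjusted p = 0.021) and -0.37 ± 0.14 (adjusted p = 0.046).

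The Ugt2b5 and Ugt2b36 calls depended on the setting. Ugt2b5 lost its call in 12 of 17 alternative settings, among them leaving out either small library, and Ugt2b36 in 3 of 17, which were DESeq2 and leaving out RANKL replicate 3 or 4. The highest gene of the row, Ugt2b34, held 241.1, 222.5, 180.9 and 216.7 CPM in control and 208.3, 225.1, 213.3 and 221.9 CPM in RANKL libraries. It did not pass the threshold (log2 fold change 0.01 ± 0.10, adjusted p = 0.94). In control libraries Ugt2a3 was between 0.123 and 0.198 of the Ugt2b34 level and in RANKL libraries between 0.0698 and 0.0795 of it.

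**Figure D3:**
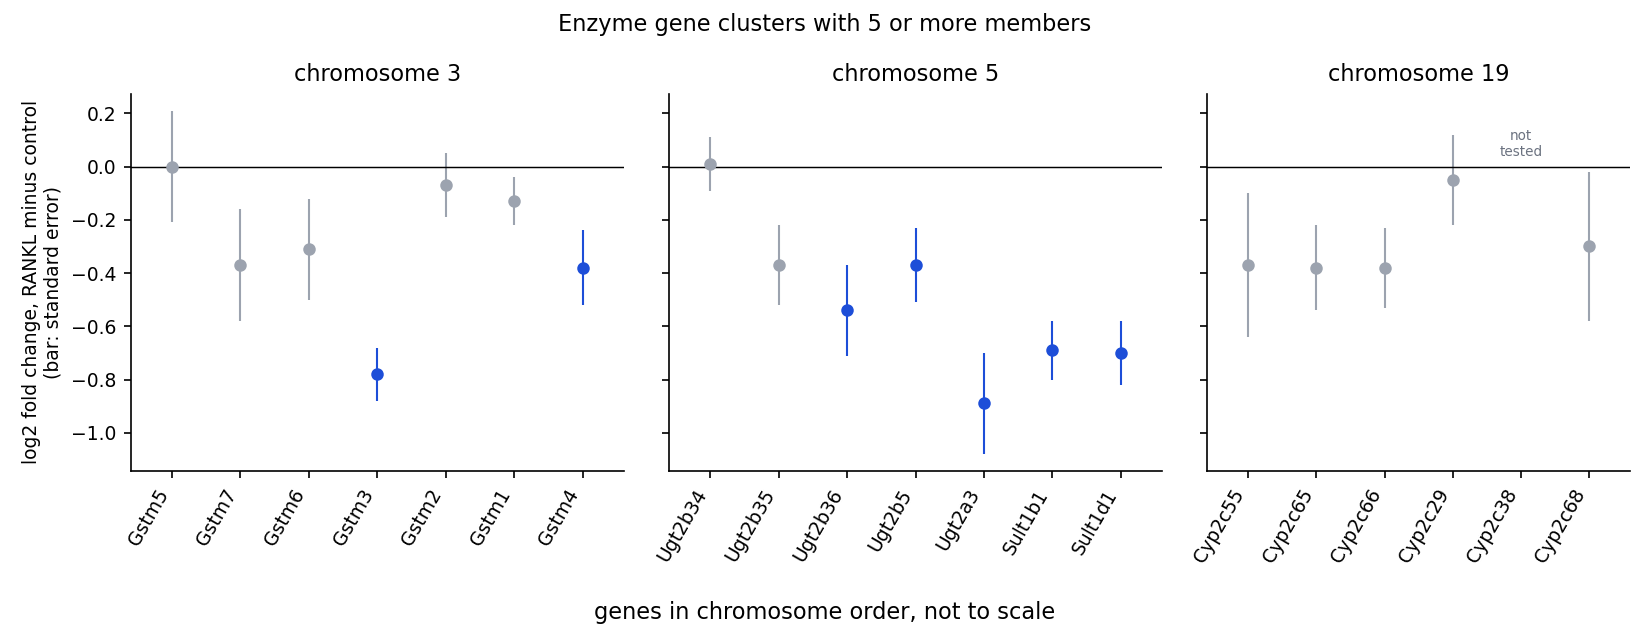
Log2 fold change (vertical axis, RANKL minus control, bar: standard error) of the enzyme genes in the 3 chromosomal clusters with at least 5 members, in chromosome order and not to scale. Blue genes passed the threshold: 2 of 7 on chromosome 3, 5 of 7 on chromosome 5, and none of the 5 tested on chromosome 19. Over all tested genes 12.4% were called lower.

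UGT1 transcripts, including that of the bilirubin-conjugating Ugt1a1, share their 3′ exons. Between 57.8% and 100% of the 50-base words at the 3′ end of each of the 4 UGT1 members were shared, so which UGT1 gene a read came from is uncertain. Ugt1a7c was lower, with 16.6, 16.9, 19.5 and 13.8 CPM in control and 9.69, 9.64, 10.4 and 11 CPM in RANKL libraries (log2 fold change -0.74 ± 0.23, adjusted p = 0.014). The groups did not overlap, but the call was lost with DESeq2 and with library total as a covariate. Ugt1a5 ranged from 8.32 to 13.2 and from 7.3 to 12.1 CPM, and did not pass the threshold. Summed over its 4 members, UGT1 held 39.9 ± 9.9 CPM in control and 28.2 ± 1.7 CPM with RANKL, and this sum does not depend on how reads were split among the 4. Other UGT1 genes on the shared exons held almost no counts, such as Ugt1a10 with 0 and Ugt1a9 with 3 over all libraries. Reads on exons common to all UGT1 genes were thus not counted for every gene. The UGT1 sum and the Ugt1a7c values may leave out such reads. The groups nearly met, at 31.0 CPM in the lowest control and 30.8 CPM in the highest RANKL library.

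Glutathione S-transferases carried the largest share of the enzyme signal, 44.2% of the member total in control. Gstm3, a mu-class enzyme that conjugates electrophiles with glutathione (chr3:107963696-107969283), was the second most abundant member in control libraries. It measured 645.1, 628.7, 695.4 and 708.5 CPM there and 395.5, 397.8, 426.1 and 341.6 CPM with RANKL. The gap between the groups was several times the spread within them (log2 fold change -0.78 ± 0.10, adjusted p = 2.3e-07), and in absolute terms this was the largest drop of any called member. Gstm1, the most abundant member of all, had 824.7, 840.4, 861.9 and 827.2 CPM in control and 760.4, 830.1, 696.2 and 772.2 CPM in RANKL libraries. Its groups overlapped in a single RANKL library, and the log2 fold change of -0.13 ± 0.09 did not pass the threshold (adjusted p = 0.30). The ratio of Gstm3 to Gstm1 ran from 0.748 to 0.857 in control and from 0.442 to 0.612 in RANKL libraries.

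All 7 mu-class genes lie within 149 kb of chromosome 3. Besides Gstm3, only Gstm4 passed the threshold, with 52.6, 54.2, 64.1 and 72.2 CPM in control and 43.6, 42.0, 50.6 and 42.3 CPM with RANKL (log2 fold change -0.38 ± 0.14, adjusted p = 0.046). This call was lost in 10 of 17 alternative settings, among them DESeq2, limma-voom and leaving out control replicate 3 or 4 or RANKL replicate 1, 2 or 4. The other 5 members of the cluster had log2 fold changes between -0.37 and 0.

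The alpha class, which also reduces lipid hydroperoxides, went the other way in part. Gsta2 (chr9:78331018-78355788) rose from 80.2, 87.2, 77.3 and 84.3 CPM in control to 122.7, 107.4, 112.1 and 115.9 CPM in RANKL libraries, which were all above the controls (log2 fold change 0.48 ± 0.11, adjusted p = 0.0017). The last 500 bases of Gsta2 share 64.8% of their 50-base words with other genes and those of Gsta1 91.7%, mostly with each other and with the predicted genes Gm3776 and Gm10639, so the split of reads between them is uncertain. Gsta1 itself spread widely, with 238.0, 391.5, 297.0 and 442.0 CPM in control and 463.3, 357.2, 373.4 and 499.8 CPM with RANKL. The groups overlapped (log2 fold change 0.34 ± 0.14, adjusted p = 0.069), and 7 alternative settings carried Gsta1 past the threshold. Gsta3 (adjusted p = 0.94) and Gsta4, which detoxifies the lipid peroxidation product 4-hydroxynonenal, had log2 fold changes of -0.02 ± 0.11 and -0.30 ± 0.12 (adjusted p = 0.072). In control libraries Gsta2 was between 0.653 and 0.976 of the Gsta4 level and in RANKL libraries between 1.17 and 1.49 of it.

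None of the 7 tested theta, pi, omega and kappa transferases passed the threshold. All 7 log2 fold changes were positive, from 0.09 to 0.73, while 50.0% of all tested genes had a negative one. The 0.73 was that of Gstp3. The untested Gstp2 went the other way, with a mean of 5.49 CPM in control and 4.06 CPM with RANKL. Gstt3, a theta-class enzyme, was the most abundant, with 227.1, 227.0, 186.3 and 172.0 CPM in control and 226.0, 215.4, 204.4 and 261.4 CPM in RANKL libraries, and the groups overlapped. Gsto1, of the omega class that reduces dehydroascorbate, had a mean of 168.6 ± 9.04 CPM in control and 177.1 ± 9.47 CPM with RANKL. The low Gstp3 is named after its values were seen: its groups did not overlap, at 7.13, 6.71, 5.58 and 0 CPM against 9.69, 8.26, 12.0 and 10.4 CPM, with an adjusted p of 0.077. It passed the low-count filter through the RANKL libraries, since only 2 control libraries reached the filter's 5.39 CPM.

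Of the microsomal transferases, Mgst3, a membrane enzyme with glutathione transferase and peroxidase activity (chr1:167371966-167393841), rose. It measured 60.2, 48.0, 44.1 and 51.6 CPM in control and 82.3, 70.2, 76.1 and 87.3 CPM in RANKL libraries. Every RANKL library was above every control library (log2 fold change 0.62 ± 0.13, adjusted p = 0.00071). Mgst2, which can make leukotriene C4, was the most abundant of the 3, with 336.2, 323.6, 252.7 and 283.8 CPM in control and 232.5, 267.7, 279.5 and 321.3 CPM with RANKL. These groups overlapped (log2 fold change -0.11 ± 0.11), as did those of Mgst1 (0.03 ± 0.15). Mgst3 was between 0.148 and 0.182 of the Mgst2 level in control and between 0.262 and 0.354 of it in RANKL libraries.

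Both tested sulfotransferases of the SULT1 group fell, and the third, Sult1c2, had too few counts to be tested. Sult1b1, which sulfates phenols and thyroid hormones, had 174.7, 180.1, 161.2 and 161.7 CPM in control and 125.9, 105.3, 100.1 and 98.3 CPM with RANKL (log2 fold change -0.69 ± 0.11, adjusted p = 1.4e-05). Its neighbour Sult1d1, which acts on catecholamines, had 85.3, 99.8, 99.3 and 91.1 CPM in control and 61.3, 59.2, 58.4 and 54.4 CPM with RANKL (log2 fold change -0.70 ± 0.12, adjusted p = 5.2e-05). Neither gene's groups overlapped, and the log2 fold changes of this pair differed by less than their standard errors. Sult6b2, the most abundant sulfotransferase, had 209.6, 236.4, 200.2 and 223.6 CPM in control and 280.9, 220.9, 186.2 and 186.7 CPM in RANKL libraries. It did not pass the threshold (adjusted p = 0.93), and its high value in RANKL replicate 1, a small library, placed the SULT total of that library among the controls. The ratio of Sult1b1 to Sult6b2 ran from 0.723 to 0.834 in control and from 0.448 to 0.538 with RANKL.

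**Figure D4:**
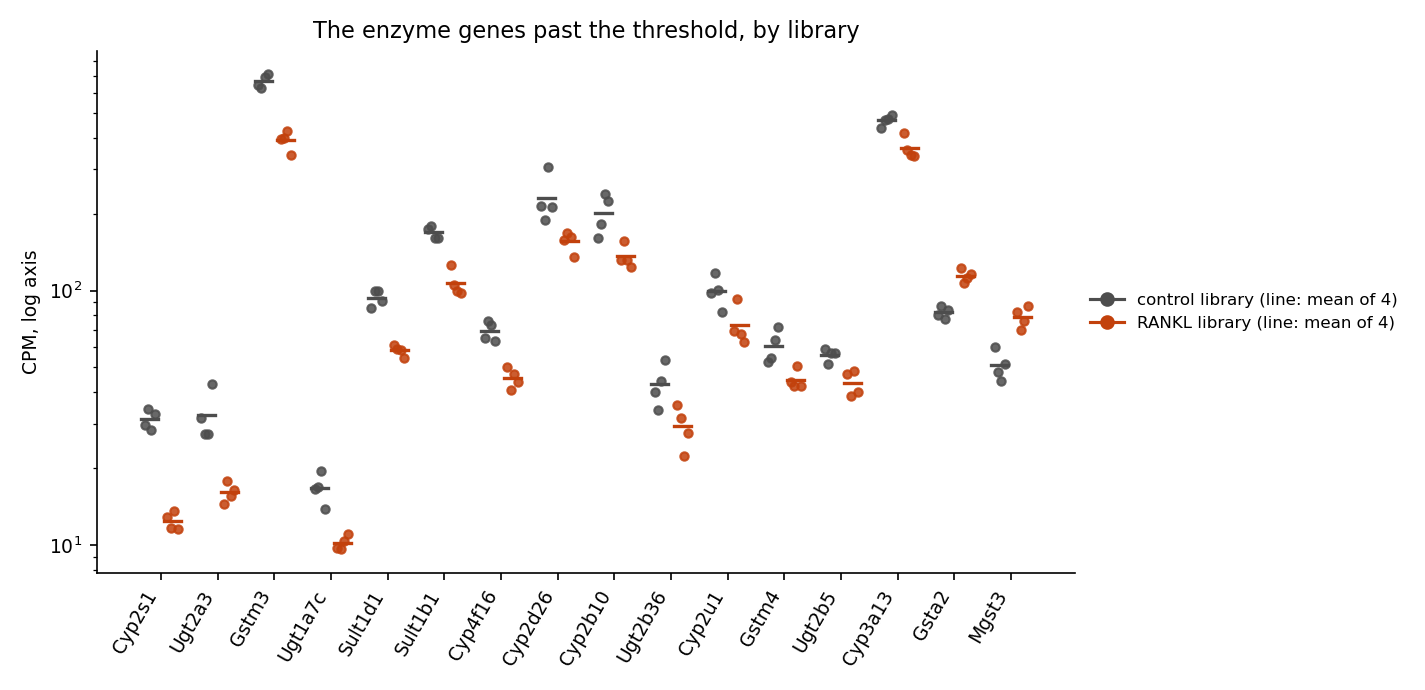
CPM (log axis) of the 16 enzyme genes past the threshold in each of the 4 control and 4 RANKL libraries (points, lines: mean of 4), ordered by log2 fold change. The groups are separate for 14 genes and overlap for Cyp2u1 and Ugt2b36.

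The promoter windows of 54 of the 59 members were matched by symbol in RefSeq (GRCm38.p6, 250 bases before to 50 after the start). Cyp2u1, Cyp2d22, Cyp2c23, Gsta4 and Gstt2 were not matched. The windows were searched on both strands for the core of the xenobiotic response element bound by the aryl hydrocarbon receptor (GCGTG), a core of the antioxidant response element bound by NRF2 (TGACNNNGC), and a loose NF-κB motif of 3 G, any 5 bases and 2 C. The stretches below show an abundant neighbouring pair that differed in response (Gstm3 and Gstm1), a similar pair with shared reads (Gsta1 and Gsta2), the other member that rose (Mgst3) and the called member with the largest fall (Cyp2s1), each from 250 bases before to 30 bases after the start, with the motif matches in capitals.
Gstm3: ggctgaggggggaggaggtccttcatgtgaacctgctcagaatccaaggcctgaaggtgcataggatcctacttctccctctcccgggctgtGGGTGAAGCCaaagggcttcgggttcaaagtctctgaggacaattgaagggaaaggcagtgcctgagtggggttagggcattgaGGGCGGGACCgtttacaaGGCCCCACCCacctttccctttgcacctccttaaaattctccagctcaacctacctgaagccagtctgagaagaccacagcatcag
Gstm1: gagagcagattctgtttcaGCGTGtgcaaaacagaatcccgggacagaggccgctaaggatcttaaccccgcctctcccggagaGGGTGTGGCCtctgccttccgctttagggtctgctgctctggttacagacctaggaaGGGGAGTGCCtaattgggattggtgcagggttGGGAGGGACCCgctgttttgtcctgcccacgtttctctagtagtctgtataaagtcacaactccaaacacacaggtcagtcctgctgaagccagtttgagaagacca
Gsta1: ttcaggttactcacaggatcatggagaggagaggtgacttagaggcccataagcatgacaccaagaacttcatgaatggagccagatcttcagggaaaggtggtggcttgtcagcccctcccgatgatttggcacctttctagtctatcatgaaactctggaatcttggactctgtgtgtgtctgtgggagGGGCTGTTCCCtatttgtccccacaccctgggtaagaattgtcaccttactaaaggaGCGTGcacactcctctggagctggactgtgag
Gsta2: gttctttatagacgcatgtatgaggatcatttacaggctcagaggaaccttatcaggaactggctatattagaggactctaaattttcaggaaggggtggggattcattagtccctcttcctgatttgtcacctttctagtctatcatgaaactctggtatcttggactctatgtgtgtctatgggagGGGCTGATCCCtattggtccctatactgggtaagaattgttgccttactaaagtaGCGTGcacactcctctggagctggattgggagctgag
Mgst3: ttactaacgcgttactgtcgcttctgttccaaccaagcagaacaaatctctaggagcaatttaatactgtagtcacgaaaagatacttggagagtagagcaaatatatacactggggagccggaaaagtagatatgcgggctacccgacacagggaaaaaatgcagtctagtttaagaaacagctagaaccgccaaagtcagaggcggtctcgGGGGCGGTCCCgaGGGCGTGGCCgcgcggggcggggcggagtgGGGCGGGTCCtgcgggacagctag
Cyp2s1: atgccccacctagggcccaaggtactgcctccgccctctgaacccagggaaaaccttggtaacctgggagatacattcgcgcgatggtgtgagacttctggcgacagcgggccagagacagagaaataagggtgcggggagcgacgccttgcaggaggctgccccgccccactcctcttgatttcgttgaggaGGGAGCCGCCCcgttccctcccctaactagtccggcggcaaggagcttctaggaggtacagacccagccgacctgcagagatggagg

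These stretches lie, on GRCm38.p6, at chr3:107969145-107969424 (minus strand) for Gstm3, chr3:108017789-108018068 (minus) for Gstm1, chr9:78230419-78230698 (plus) for Gsta1, chr9:78347116-78347395 (minus) for Gsta2, chr1:167393812-167394091 (minus) for Mgst3 and chr7:25816496-25816775 (minus) for Cyp2s1. Gstm1 has another window, not shown. The Gsta1 and Gsta2 windows hold the same motifs at nearly the same places and were 79.3% identical in a global alignment, those of Gstm1 and Gstm3 68.0%, and the unrelated pair Gstm3 and Mgst3 56.3%. In the Mgst3 window the match to GCGTG lies inside a match to the NF-κB motif.

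The xenobiotic response element core was present in both higher members, 4 of 13 lower members (30.8%; Cyp2b10, Cyp4f16, Sult1b1 and Sult1d1), 10 of 33 members that did not pass the threshold (30.3%) and 35.2% of 27025 genes with a window. The antioxidant core was found in none of the 15 called members with a window, in 8 of the 33 others (24.2%) and in 14.0% of all genes. The NF-κB motif was in both higher members, 9 of 13 lower members (69.2%), 16 of 33 others (48.5%) and 53.5% of all genes. These matches describe letters in a short window and carry no information on binding.

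The regulators of these enzymes that passed the threshold included higher and lower ones. Of 28 tested, 4 were higher (Ahr, Nfe2l1, Mafg, Arntl), 6 were lower (Vdr, Ppara, Nr1i3, Hnf4g, Bach1, Rxra) and 18 did not pass the threshold. Over all tested genes 13.6% were higher and 12.4% lower. The counts of this list and of those below were not tested against these shares. Ahr, the aryl hydrocarbon receptor, had 8.4, 8.86, 8.87 and 17.2 CPM in control and 17.8, 26.2, 25.6 and 30.8 CPM with RANKL (log2 fold change 1.5 ± 0.22, adjusted p = 5.2e-06). The highest control and the lowest RANKL value, which nearly met, came from the smallest libraries. None of the 4 tested AHR target genes outside the enzyme families passed the threshold, and their 7 listed genes summed to 343.0 to 365.0 CPM in control and 308.0 to 321.0 CPM with RANKL. Vdr, the vitamin D receptor, fell from between 272.9 and 309.8 CPM in control to between 124.1 and 156.6 CPM (log2 fold change -1.02 ± 0.10, adjusted p = 5.4e-09), and Ppara, the fatty acid receptor, from a mean of 74.3 ± 21 to 36.6 ± 8.23 CPM (-0.91 ± 0.18, adjusted p = 0.00026).

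Nr1i3, the constitutive androstane receptor, fell from 135.4 ± 23.8 to 97.3 ± 6.61 CPM (log2 fold change -0.48 ± 0.12, adjusted p = 0.004), and its partner Rxra had a log2 fold change of -0.33 ± 0.12 (adjusted p = 0.033). Nr1i2, the pregnane X receptor, had 260.2 ± 16.0 CPM in control and 237.6 ± 16.0 CPM with RANKL and did not pass the threshold (adjusted p = 0.42). Neither did Hnf4a (log2 fold change -0.17 ± 0.12), Arnt (-0.10 ± 0.18), Keap1 (0.15 ± 0.10) or Nfe2l2, which encodes NRF2 (-0.24 ± 0.10, adjusted p = 0.083). Nfe2l1, a relative of NRF2, rose from 96.0 ± 18.8 to 265.9 ± 12.1 CPM (1.48 ± 0.12, adjusted p = 4.8e-11). Of 23 tested NRF2 targets outside the enzyme families, 7 were higher, led by Abcc1 and Abcc4 and, with log2 fold changes of 1.00 ± 0.10 and 0.91 ± 0.13, Srxn1 and Me1, while 3 were lower (Gclm, Tkt, Cbr1) and 13 did not pass. Over all tested genes 13.6% were higher and 12.4% lower. Several of the NRF2 target genes also stand in the glutathione or transporter list.

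**Figure D5:**
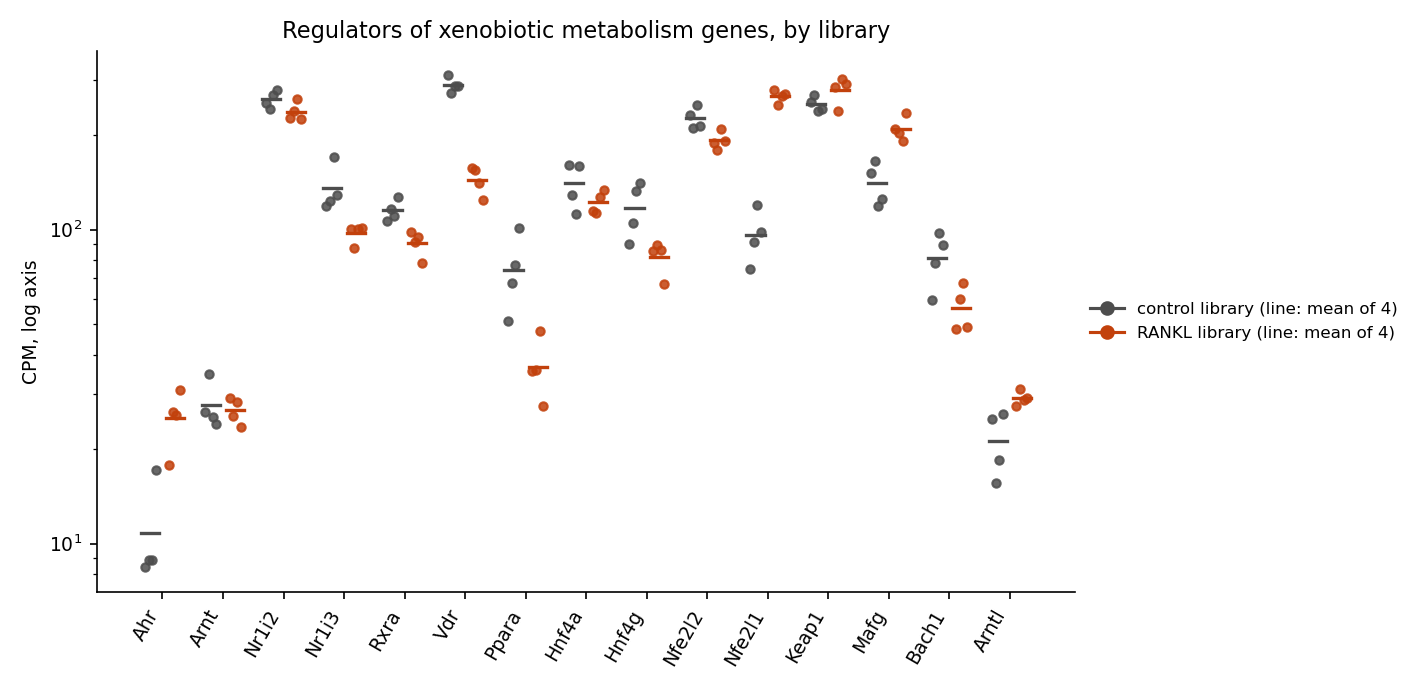
CPM (log axis) of 15 regulators in each of the 4 control and 4 RANKL libraries (points, lines: mean of 4). Ahr, Nfe2l1, Mafg and Arntl lie higher and Vdr, Ppara, Nr1i3, Rxra and Hnf4g lower in RANKL than in control libraries without overlap, and the Bach1 groups overlap.

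The supply of cofactors for the enzymes changed unevenly. Papss2, which makes the sulfate donor of the sulfotransferases, rose from 307.9 ± 11.2 to 544.3 ± 38.3 CPM (log2 fold change 0.82 ± 0.09, adjusted p = 5.1e-08), whereas its paralogue Papss1 was lower (-0.40 ± 0.15, adjusted p = 0.045). Ugdh, which makes UDP-glucuronic acid, and Slc35d1, which carries it into the endoplasmic reticulum, were lower (-0.32 ± 0.10 and -0.40 ± 0.12). Por, the electron donor of microsomal P450s, was lower as well (-0.39 ± 0.11, adjusted p = 0.0084), with overlapping groups. The remaining 10 of 15 tested genes of this list did not pass. In all 1 was higher and 4 were lower, against 13.6% and 12.4% of all tested genes.

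Glutathione genes split similarly, with 4 higher, 6 lower and 10 of 20 tested not past the threshold. Over all tested genes 13.6% were higher and 12.4% lower. Gclc, the catalytic subunit of the enzyme that starts glutathione synthesis, rose from 137.2 ± 6.20 to 210.6 ± 6.64 CPM (0.63 ± 0.10, adjusted p = 1.3e-05), while Gclm, its modifier subunit, fell from 137.0 ± 13.9 to 85.2 ± 7.12 CPM (-0.64 ± 0.11, adjusted p = 7.4e-05). Gpx1, a glutathione peroxidase, rose (0.84 ± 0.10) and Ggct, of the glutathione breakdown pathway, fell (-0.73 ± 0.17).

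Of 35 tested phase I enzymes outside the P450s, 10 were lower and 2 higher. The shares of all tested genes to set beside this list and the transporters were 12.4% lower and 13.6% higher. Ces2a, a carboxylesterase that hydrolyses ester drugs, fell from 655.1 ± 92.9 to 364.8 ± 9.51 CPM (-0.85 ± 0.10, adjusted p = 1.1e-07), Aldh1b1, an aldehyde dehydrogenase, had a log2 fold change of -0.60 ± 0.11, Akr1c14 of -1.21 ± 0.32 and Ces2g of 0.64 ± 0.20. Among 16 tested transporters, the efflux pumps Abcc1 (1.67 ± 0.20), Abcc4 (1.08 ± 0.18) and Abcc5 and the uptake carrier Slco3a1 (1.49 ± 0.23) were higher. Abcb1a, which encodes P-glycoprotein of the luminal membrane, fell from 306.5 ± 25.5 to 192.4 ± 11.5 CPM (-0.67 ± 0.10, adjusted p = 5.7e-06). Slco2b1 (-0.76 ± 0.14) and Abcc2 were also lower, and 9 transporters did not pass.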

How the data were processed

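Gene expression was measured by QuantSeq 3′ mRNA sequencing (single reads of 50 bases) in 4 control and 4 RANKL libraries, grouped by the sample labels. The authors trimmed reads with BBDuk 38.06, removed abundant sequences with bowtie2 2.3.4.1, aligned the rest to GRCm38 with STAR 2.6.0c and counted strand-specifically on Ensembl 94 genes with featureCounts (subread 1.6.2). The deposited values are raw counts per gene. How reads on exons of several genes were counted is not given in the sources used here.

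Counts were tested with the quasi-likelihood test of edgeR 4.0.16 (R 4.3.3; TMM factors, low-count filter by group, no covariate) and adjusted by Benjamini-Hochberg over 9971 genes at 0.05. CPM values are TMM-scaled. DESeq2 1.42.0 and limma-voom (limma 3.58.1) were alternatives, as were other scalings, filters, a replicate block, library total as a covariate and left-out libraries. In simulated counts with 200 changed genes, edgeR recovered 48 of 50 genes changed by 2-fold and 21 of 50 changed by 1.5-fold, with 9 false calls among 9914 genes tested. In the data a far larger share of genes was called (25.9%), so these figures may not hold for the reported calls. Coordinates and shared 50-base words come from GENCODE M21, which matched 54495 of 54532 identifiers. Of the 59 members, 29 shared at least 1 such word with another gene. Among them were Gstt3 (17.2% of words), Cyp2b10 (13.9%) and Cyp2d26 (8.57%), whose counts are uncertain to that degree.

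Members, lists and motifs were chosen with earlier results of these data known. Named genes are all members past the threshold, the 2 most abundant members of each family, set regulators with those past the threshold, and up to 4 called genes of each other list. Replicate pairs of a group differed by more than sampling noise (chi-square over its degrees of freedom from 1.25 to 15.4), so each library counted once. The sums of families and ratios of gene pairs, the latter picked after their values were seen, are given without a test.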

Additional observations from a re-analysis of the deposited data

Results flagged for a closer look

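Among 118 groups of 4 values (59 members, control and RANKL), 3 held a library far from the other 3 by Dixon's 95% criterion, where chance alone flags about 1 in 20. Gstm7 had 25.8 CPM in control replicate 3 against 19.1 CPM in the nearest control. Sult2b1 had 5.16 CPM in control replicate 4, the smallest library, against 13.1 CPM in the nearest control. Cyp4f40 had 0.688 CPM, a single count, in RANKL replicate 2 and no count in the other RANKL libraries. None of the 3 genes passed the threshold.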

How the results depend on the processing

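No member changed direction among those past the threshold. Of the 14 lower members, 9 kept their call at an adjusted p of 0.05 under each other scaling, filter, tool, covariate, block or left-out library in which they were tested, and so did both higher ones, but a fold threshold removed most calls. Leaving out each library in turn gave 10 to 15 lower and 2 to 3 higher members, the fewest lower without RANKL replicate 4, with a median log2 fold change of the tested members between -0.2 and -0.12. With the replicate block 13 members were lower and 4 higher. Deviations of same-numbered replicates correlated little (-0.007, -0.033, 0.101 and 0.035), and 0.101 was the highest value of any control and RANKL pair. Sampling noise of low counts also keeps such correlations low, so they cannot exclude a pairing by replicate number. With a fold of at least 2 added, 1 member was lower, 0 were higher and 577 of all genes remained, and at an adjusted p of 0.01 1636 genes were called. Without members that share 50-base words, 7 of 26 tested were lower and 1 higher. Without the 2 libraries under 1000000 counts, an alternative added after seeing the data, 13 were lower and 3 higher of 55 tested. Low members are limited by depth, since 1 count was worth up to 1.72 CPM.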
